A study of Homo sapiens with 5 samples.

Results

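The stretch described here is the major histocompatibility complex (MHC) and the neighbouring segment of 6p21. A peak belonged to it if its start lay on chromosome 6 from 29 Mb to below 45 Mb of the human genome build hg19. Peaks that started before 33.5 Mb were assigned to the MHC (4.5 Mb long) and the rest to the segment beyond it (11.5 Mb long). This gave 342 of the 23350 peaks of the 5 lists, 158 in the MHC and 184 beyond it. Membership depended on position alone, and no measured value was used to choose single peaks. The stretch itself was chosen with earlier results of these data known.

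Methylated DNA immunoprecipitation with sequencing (MeDIP-seq) uses an antibody against 5-methylcytosine to pull down methylated DNA fragments, so that a peak marks a stretch rich in methylated cytosine. The assay was run on 5 cultures of the human line K562, which was established from chronic myeloid leukaemia. The comparison was between wild-type cells and cells in which DNMT3A, which encodes a de novo DNA methyltransferase, had been mutated by CRISPR/Cas9 editing. The 2 wild-type libraries were a bulk culture (WT bulk) and a transfected culture (WT transfected), which are different kinds of control. The 3 mutated libraries were the lines MT1, MT2 and MT4. The extraction protocol speaks of clones, and the labels give neither the mutation of each line nor whether the lines came from separate editing events.

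The MHC is among the most gene-dense stretches of the human genome. Its class I genes encode the surface proteins that present peptides to cytotoxic T cells, and its class II genes encode those that present peptides to helper T cells. The class III stretch between them holds complement genes and other genes without an antigen-presenting role. DNA methylation can silence class I and class II genes in tumour cells, and K562 is widely used as a line with little or no HLA on its surface.

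Lists differed in length across the genome, from 1426 peaks in MT2 and 2842 in MT1 to 4470 in WT transfected, 6213 in WT bulk and 8399 in MT4. The labels' protocol gives about 40 M reads as the size of a library. No counts per peak were given, so the depth behind a peak is unknown. Where a list has no peak, none was listed for that library, and less methylation cannot be told apart from a less sensitive library or from other causes. Values were therefore also expressed per peak of the list.

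The MHC held more peaks per Mb than the segment beyond it in every library. WT bulk had 36 peaks in the MHC and 50 beyond it, WT transfected 33 and 39, MT1 21 and 20, MT2 8 and 6, and MT4 60 and 69. Density was expressed as peaks per Mb per 1000 peaks of the list. In the MHC it was 1.29 in WT bulk and 1.64 in WT transfected, and 1.64 in MT1, 1.25 in MT2 and 1.59 in MT4. Beyond the MHC it was 0.700, 0.759, 0.612, 0.366 and 0.714 in the same order. The values of the MHC and of the segment beyond it did not overlap. The mean within-library difference was 0.851 ± 0.161 (SD, n = 5), above 0 in 5 of 5 libraries (exact sign-swapping permutation test, two-sided, p = 0.0625, Benjamini-Hochberg adjusted 0.312 over the 10 tests made here). That p is the smallest that 5 libraries allow. Among peaks that scored at least 121.64, the median of all peaks, the mean difference was 0.552.

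The rest of chromosome 6 was less dense than the segment as a whole, again in every library. It had 0.485, 0.514, 0.543, 0.548 and 0.523 peaks per Mb per 1000 peaks in WT bulk, WT transfected, MT1, MT2 and MT4. The mean difference, segment minus rest of the chromosome, was 0.347 ± 0.166 (SD, n = 5) and was above 0 in 5 of 5 libraries (exact sign-swapping permutation test, two-sided, p = 0.0625, adjusted 0.312). The mean was 0.218 (exact sign-swapping permutation test, p = 0.125) with the same score limit and 0.2003 with lists of equal length. With the score limit the difference was no longer above 0 in every library. Over the full lists MT2 had the smallest difference, 0.0658. In that library the segment beyond the MHC, at 0.366, lay under the rest of the chromosome, which no other library showed. The adjoining stretch from 26 to 29 Mb was denser than the MHC in all 5 libraries, with 2.90 to 4.91 peaks per Mb per 1000 peaks. Against the genome as a whole the MHC was 3.73 to 4.91 times as dense, and the segment beyond it 1.09 to 2.27 times.

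**Figure D1:**
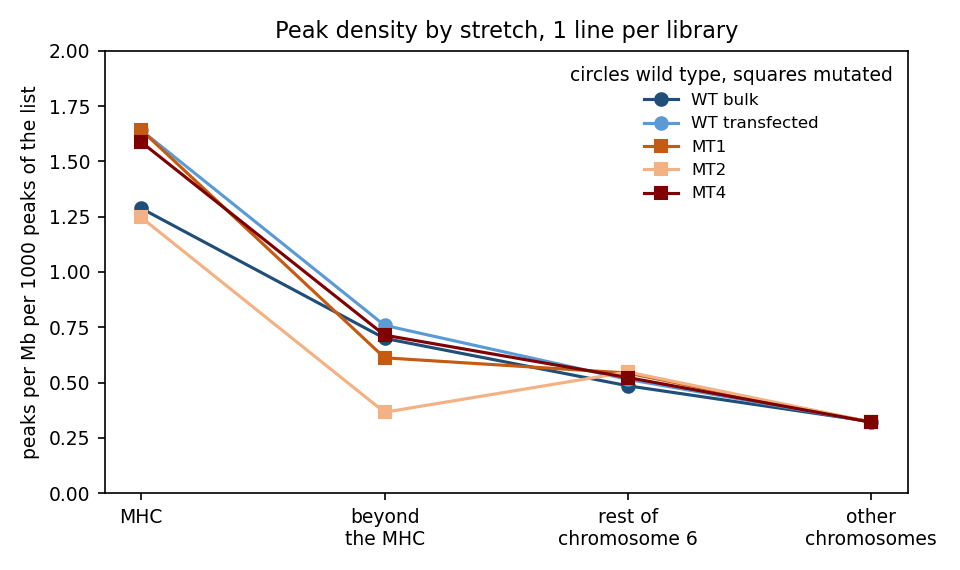
Peak density (peaks per Mb per 1000 peaks of the list, linear axis from 0) in the MHC, the segment beyond it, the rest of chromosome 6 and the other chromosomes, with 1 line per library. Every line falls from the MHC (1.25 to 1.64) to the segment beyond it (0.366 to 0.759), and MT2 alone lies lower there than on the rest of the chromosome.

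Peaks were clustered within the segment. After peaks that overlapped by at least 1 bp in any lists had been merged, it held 167 regions, 73 in the MHC and 94 beyond it. These came to 16.2 regions per Mb in the MHC and 8.17 beyond it, against 3.77 over the genome. The windows of 1 Mb with the most regions were 30 to 31 Mb with 21 and 31 to 32 Mb with 20, both in the MHC. They were followed by 35 to 36 Mb and 36 to 37 Mb with 17 each, beyond it. As many regions as at 30 to 31 Mb were found in 1.37% of the 2183 windows of the genome that held any region, where the median was 4. No window of the segment was empty. The sparsest was 38 to 39 Mb, with 2 regions.

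Peak counts per window differed between the libraries, as did the lengths of their lists. The window from 30 to 31 Mb had 12 peaks in WT bulk and 9 in WT transfected, and 4 in MT1, 1 in MT2 and 18 in MT4. As shares of the list these were 0.193%, 0.201%, 0.141%, 0.0701% and 0.214%, so that WT bulk, WT transfected and MT4 lay close together. At 31 to 32 Mb there were 9, 10, 7, 0 and 15. At 29 to 30 Mb there were 5, 7, 5, 5 and 10. MT2 thus had 5 of its 14 peaks in the first Mb of the MHC and none in the window that was second densest over all lists. With only 14 peaks, its count in a single window is uncertain.

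**Figure D2:**
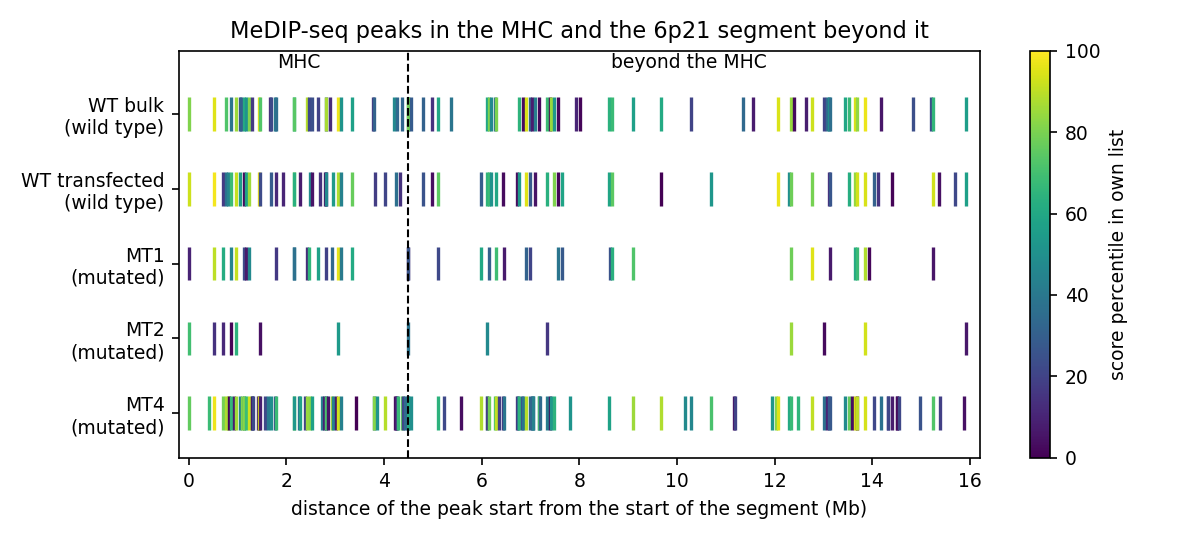
Position of each peak start, as distance in Mb from the start of the segment, with 1 row per library and the end of the MHC as a dashed line. The colour gives the percentile of the peak's score within its own list. MT2 has 14 peaks and its longest empty stretch runs from about 7 to 12 Mb along the axis, of which MT1 also leaves the last part empty.

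The longest stretch of the MHC without a peak in any list was 403 kb (29004687 to 29407712). Beyond the MHC it was 602 kb (37013079 to 37615441). Single lists left longer stretches. In MT1 no peak lay between 32353584 and 33489017 (1135 kb) in the MHC and between 38092874 and 41340593 (3248 kb) beyond it. In MT2 the longest such stretches were 30467477 to 32063027 (1596 kb) and 36332832 to 41340579 (5008 kb). The list of MT4, the longest, had 404 kb and 806 kb.

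The question of the design was whether mutated and wild-type libraries differed in this segment. The share of a list's peaks that lay in the MHC was 0.579% in WT bulk and 0.738% in WT transfected, and 0.739% in MT1, 0.561% in MT2 and 0.714% in MT4. Both groups spanned nearly the same range. The mutated mean was 0.671 ± 0.0964% (SD, n = 3) and the wild-type mean 0.659 ± 0.112% (SD, n = 2), a difference of 0.0126 percentage points (exact permutation test, two-sided, p = 1, adjusted 1). Its sign turned without WT bulk (-0.0668), MT1 (-0.0212) or MT4 (-0.00888), and it reached 0.0920 without WT transfected and 0.0678 without MT2. With 2 libraries against 3, no p under 0.2 was possible.

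Beyond the MHC the shares were 0.805% in WT bulk and 0.872% in WT transfected, and 0.704% in MT1, 0.421% in MT2 and 0.822% in MT4. MT2 was the lowest, and MT4 lay between the wild-type libraries. The mutated mean was 0.649 ± 0.206% (SD, n = 3) and the wild-type mean 0.839 ± 0.0479% (SD, n = 2), a difference of -0.190 percentage points (exact permutation test, two-sided, p = 0.4, adjusted 0.667). Without MT2 the difference was -0.0760. For the segment as a whole the shares were 1.38%, 1.61%, 1.44%, 0.982% and 1.54%, with means of 1.32 ± 0.297% (SD, n = 3) and 1.497 ± 0.160% (SD, n = 2). That difference was -0.177 percentage points (exact permutation test, two-sided, p = 0.6, adjusted 0.857). It was -0.00819 without MT2, -0.0641 without WT transfected, -0.291 without WT bulk, -0.285 without MT4 and -0.372 with the score limit at 121.64.

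The balance between the MHC and the segment beyond it was the only 1 of the 4 shares compared in which the groups did not overlap. MHC peaks made up 41.9% of the segment's peaks in WT bulk and 45.8% in WT transfected, and 51.2% in MT1, 57.1% in MT2 and 46.5% in MT4. With membership by peak start, all 3 mutated libraries lay above both wild-type libraries, with MT4 and WT transfected as the nearest pair. List lengths of MT2 and MT1, which had the highest values, were the shortest. The means were 51.6 ± 5.33% (SD, n = 3) and 43.8 ± 2.81% (SD, n = 2), a difference of 7.78 percentage points (exact permutation test, two-sided, p = 0.2, the smallest possible, adjusted 0.5). The 95% Wilson interval of a single library's share spanned 32.6 to 78.6% in MT2 and 38.1 to 55.1% in MT4. The difference was 2.75 points (exact permutation test, p = 0.8) with the score limit at 121.64, which removed most MT2 peaks of the segment. It was 5.18 points (exact permutation test, p = 0.4) when every list was limited to its 1426 best-scoring peaks, and 5.02 points without MT2. It was 4.91 points (exact permutation test, p = 0.4) when the peak centre in place of its start decided membership. With the score limit, equal lists or the peak centre the groups no longer lay fully apart. By centre, the peaks of WT bulk, MT1, MT2 and MT4 that started just before 33.5 Mb all counted beyond the MHC. A single peak weighs most in MT2, which had 14 peaks in the segment.

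The bound between both stretches touched a single region, from 33499670 to 33502127. Its peak started 0.331 kb before 33.5 Mb in WT bulk, 0.186 kb in MT1, 0.232 kb in MT2 and 0.039 kb in MT4, and WT transfected had none there. By their starts these 4 peaks counted as MHC peaks. At the lower edge, the last peaks outside the MHC lay 17.7 to 17.9 kb before 29 Mb and the first inside 3.12 to 3.52 kb after it, in every library. At the upper edge the last peaks inside lay 76.9 to 757 kb before 45 Mb and the first outside 30.1 to 4449 kb after it. MT1 had the farthest pair.

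No window of 1 Mb in the segment had a higher share of peaks in every mutated than in both wild-type libraries (0 of 16). Over the genome 6.05% of the 2183 windows did. The reverse held for 1 of 16 windows, 41 to 42 Mb, against 9.80% over the genome. That window had 5 peaks in WT bulk and 4 in WT transfected, and 2 in MT1, 1 in MT2 and 6 in MT4.

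Within the MHC the peaks were set against the approximate order of its classes. The class I side was taken as 29 to 31.5 Mb, the class III side as 31.5 to 32.25 Mb and the class II side as 32.25 to 33.5 Mb. In the RefSeq table of GRCh38.p14, used for gene order only, HLA-F to MICB on the class I side spans 49 protein-coding genes. DDX39B to NOTCH4 in class III spans 58, none of them an HLA gene, and HLA-DRA to HLA-DPB1 in class II spans 18, of which 13 are HLA genes. No hg19 annotation was used here, so no gene is placed at a peak.

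The class III side had the most regions per Mb and, by the median, the widest regions. It held 16 regions (21.3 per Mb), against 38 on the class I side and 19 on the class II side (15.2 per Mb each). Peaks on the class I side numbered 21 in WT bulk and 20 in WT transfected, and 13 in MT1, 6 in MT2 and 35 in MT4. On the class III side there were 7, 8, 5, 1 and 11, and on the class II side 8, 5, 3, 1 and 14. The single class II side peak of MT2 was the one at the 33.5 Mb bound. Of the 5 MHC regions found in all libraries, 4 lay among the 38 regions of the class I side and 1 among the 16 of the class III side. The 19 regions of the class II side held 0. Over the genome 7.42% of regions were found in all libraries, and 5 regions are too few to compare the sides.

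Median peak width on the class III side was 2264 bp in WT bulk, 1905 bp in WT transfected, 2064 bp in MT1, 2161 bp in the single peak of MT2 and 2012 bp in MT4. On the class I side it was 1471, 1210.5, 1289, 1553.5 and 1135 bp in the same order. The class III side was thus the wider in 5 of 5 libraries. This difference was noticed in the data and not tested. The median region was 2233 bp wide on the class III side, 1464.5 bp on the class I side and 1533 bp on the class II side.

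**Figure D3:**
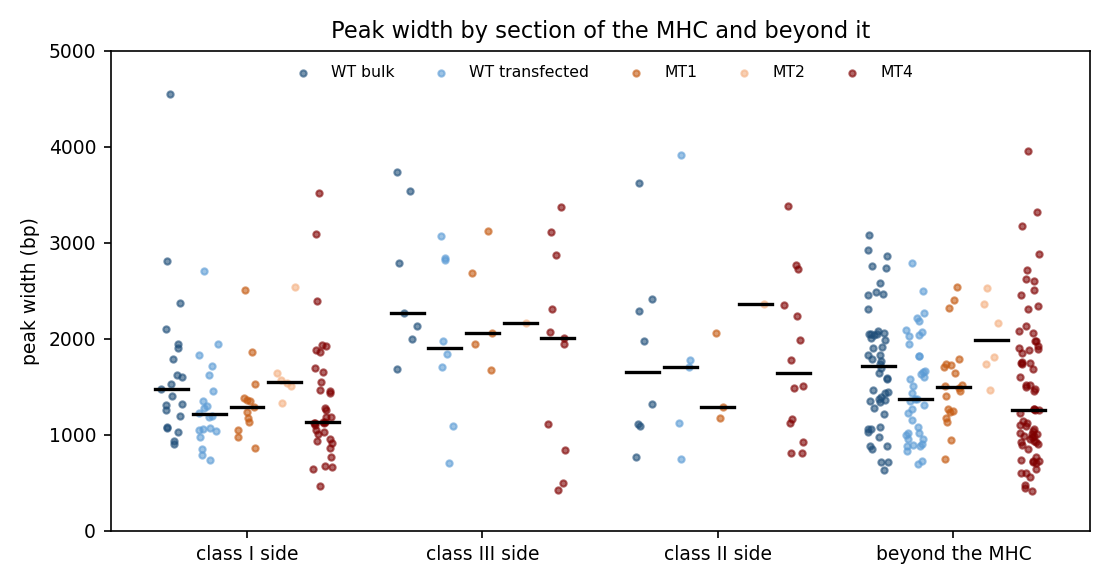
Width in bp of every peak on the class I, class III and class II sides of the MHC and beyond it, with 1 column of points per library and a bar at each median. Class III side medians lie between 1905 and 2264 bp, above the class I side median of the same library each time.

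Peaks of the MHC as a whole were mostly narrower than those beyond it. Median width in the MHC and beyond it was 1654 and 1718 bp in WT bulk, 1303 and 1373 bp in WT transfected, and 1363 and 1496 bp in MT1. It was 1606 and 1986 bp in MT2 and 1267.5 and 1254 bp in MT4. The mean difference was -126.7 ± 151 bp (SD, n = 5), with 4 libraries below and 1 above 0 (exact sign-swapping permutation test, two-sided, p = 0.125, adjusted 0.417). It was -63.4 bp without MT2 and -211 bp with the score limit at 121.64 (exact sign-swapping permutation test, p = 0.25). With that limit MT2 kept a single MHC peak (1569 bp) and peaks of 2167 and 2363 bp beyond it, so its difference rests on very few peaks. The widest peaks of the single lists were 4553 bp in WT bulk (30670115 to 30674667), 3912 bp in WT transfected (33244980 to 33248891) and 3120 bp in MT1 (31648869 to 31651988). In MT2 the widest had 2536 bp (29973602 to 29976137) and in MT4 3951 bp (43170389 to 43174339). Only the last lay beyond the MHC. The score percentile of these widest peaks was low in WT bulk (12.7) and at most 64.4 (MT2).

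Median width over the segment was 1694 bp in WT bulk, 1360 bp in WT transfected, 1454 bp in MT1, 1770.5 bp in MT2 and 1258 bp in MT4. Both groups overlapped, with a mutated mean of 1494 ± 259 bp (SD, n = 3) and a wild-type mean of 1527 ± 236 bp (SD, n = 2). The difference was -32.6 bp (exact permutation test, two-sided, p = 1, adjusted 1), and its sign turned without WT bulk (134 bp) or MT4 (85.5 bp). Leaving out WT transfected or MT2 gave -199 and -171 bp. MT2, the shortest list, had the widest and MT4, the longest list, the narrowest peaks. Where MT2 and MT4 both held a region of the segment, the peak of MT2 was the wider in 10 of 13, with a median ratio of 1.27. Elsewhere in the genome this ratio was 1.20 over 1245 regions. For the other libraries the median ratio to MT4 in shared regions of the segment was 1.06 in WT bulk, 0.959 in WT transfected and 0.991 in MT1. Width therefore did not follow list length in every library.

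Peak scores did not separate the MHC from the segment beyond it. The score is the authors' own value per peak and was read as a percentile within its list. The median percentile in the MHC was 49.6 in WT bulk and 44.4 in WT transfected, and 37.4 in MT1, 25.999 in MT2 and 50.3 in MT4. Beyond the MHC it was 44.9, 54.0, 34.9, 31.7 and 39.3. The MHC was the higher in 3 libraries and the lower in 2, with a mean difference of 0.573 ± 8.24 (SD, n = 5; exact sign-swapping permutation test, two-sided, p = 0.875, adjusted 1). Without WT bulk or MT4 the sign turned (-0.443 and -2.04). In both stretches MT1 and MT2 had the lowest medians.

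Most regions were found in few libraries. Of the 73 MHC regions 35 were held by 1 library, 13 by 2, 8 by 3, 12 by 4 and 5 by all 5. Of the 94 regions beyond the MHC the numbers were 46, 22, 12, 12 and 2. Regions of a single library made up 48.5% of the segment (81 of 167), close to the 49.9% over the genome. Regions in all 5 libraries made up 4.19% (7 of 167, 95% Wilson interval 2.05 to 8.40%), against 7.42% over the genome. Without MT2, 26 regions were held by every other library, a count with no genome share beside it. Median score percentile was 20.3 in MHC regions of 1 library and 79.1 in those of all 5, and beyond the MHC it was 20.4 and 85.9.

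**Figure D4:**
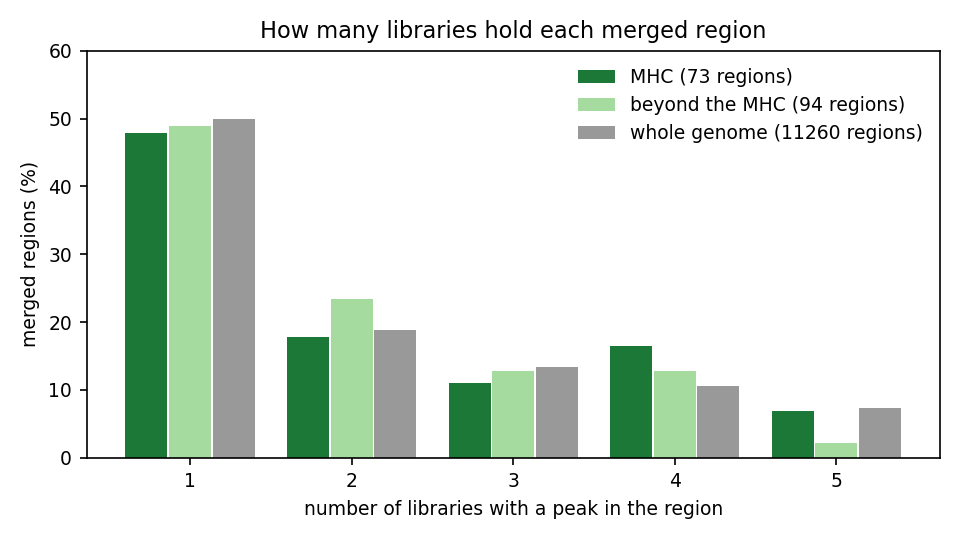
Percentage of merged regions (linear axis from 0) held by 1, 2, 3, 4 or 5 libraries, for the MHC, the segment beyond it and the whole genome. The bars of all 3 are near 50% at 1 library, and at 5 libraries the segment beyond the MHC is the lowest (2.13%).

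The 7 regions found in all 5 libraries were the most reproducible methylated sites of the segment. By mean score percentile (85.7) the first in the MHC lay on the class III side, from 32062952 to 32065348. It scored 292 in WT bulk and 196 in WT transfected, and 233 in MT1, 113 in MT2 and 239 in MT4, and it was the highest peak of the segment in WT bulk and MT1. A region from 29973602 to 29976575 on the class I side scored 196, 209, 196, 121 and 197 in the same order. Its score was near 200 in all libraries but MT2.

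A region from 29520526 to 29522168 scored 257 in WT bulk and 302 in WT transfected, and 188 in MT1, 94.7 in MT2 and 311 in MT4. Its mean percentile was 79.1. It was the highest peak of the segment in WT transfected and MT4, and lay just above the score limit of 90 in MT2. The remaining MHC regions of this kind were 29003118 to 29004686, with scores of 94.3 (MT1) to 215 (WT transfected), and 29855395 to 29856836, with 90.2 (MT2) to 145 (MT4). The last had a mean percentile of 43.7, the lowest of the 7.

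Beyond the MHC the region from 42857471 to 42859858 had the highest mean percentile of the 7, 93.1. It scored 288 in WT bulk and 227 in WT transfected, and 180 in MT1, 178 in MT2 and 243 in MT4, and was the highest peak of MT2 in the segment. The other, from 41340354 to 41342918, scored 193, 164, 151, 149 and 149. As percentiles within the lists these were 84.4, 77.9, 78.0, 84.9 and 67.9, so that the groups overlapped.

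Wild-type-only regions, held by both wild-type and no mutated library, numbered 5 of 167 (2.99%, 95% Wilson interval 1.29 to 6.82%). The share over the genome was 2.74%. The MHC held 1, on the class III side from 31807982 to 31811052, with scores of 107 in WT bulk and 93.0 in WT transfected. The other 4 lay between 33.5 and 37 Mb. The highest of these was 35180829 to 35182918, with 123 and 122, followed by 33799942 to 33803020 with 108 and 103. The region from 36097526 to 36099556 had 118 and 92.1, and that from 33984504 to 33985571 had 97.2 and 91.4. Their mean percentiles over the lists that held them were 8.93 to 48.9. The class grew to 14 regions without WT bulk, 21 without WT transfected and 17 without MT4, since fewer libraries then have to hold or lack a region. These larger counts have no genome share beside them.

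Mutant-only regions, held by all 3 mutated and no wild-type library, were absent from the segment (0 of 167, which allows a share of up to 1.80%). Over the genome they made up 0.071%, a share too small to be seen among 167 regions. The list of MT2 limits this class, since it had only 14 peaks in the segment. Without MT2 as a requirement, 2 regions were held by the other mutated libraries and no wild-type library. Leaving out WT bulk or WT transfected gave 1 each. No genome share under these looser rules was set beside the counts, so whether they are unusual cannot be judged.

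A more frequent pattern was a peak in both wild-type libraries and MT4 but not in MT1 and MT2. It held for 12 of 167 regions (7.19%), 5 in the MHC and 7 beyond it, against 7.97% over the genome. Of these, 2 were among the strongest regions of the segment. The region from 30442251 to 30443432, on the class I side, scored 267 in WT bulk, 283 in WT transfected and 258 in MT4. The region from 41068072 to 41069709, beyond the MHC, scored 251, 269 and 255. Both were chosen after their values were seen.

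Such strong peaks were rarely absent from both MT1 and MT2 elsewhere. Among regions held by both wild-type libraries and MT4 with a mean percentile of at least 90 in these 3 lists, 2 of 7 in the segment were missing from both (28.6%, 95% Wilson interval 8.22 to 64.1%). In the rest of the genome 4 of 416 were (0.962%, interval 0.375 to 2.45%). The percentile limit was set after the values were seen, and no test was made. At a limit of 80 the counts were 2 of 12 and 40 of 820, and at 95 they were 2 of 3 and 1 of 192. With no limit the shares were alike, 29.3% of 41 regions and 31.9% of 2774.

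Of the 6 regions in the genome that met the limit of 90, 3 lay on chromosome 6. The third, from 46655067 to 46656837, was outside the segment and scored 245 in WT bulk, 248 in WT transfected and 363 in MT4. Around the first region, the nearest peaks of MT1 lay in the regions that start at 30226875 and 30783461. Those of MT2 lay in the regions that start at 29973602 and 30465937, the latter with a score of 91.2. The second region lay inside the longest stretches without a peak beyond the MHC in both lines (3248 kb in MT1, 5008 kb in MT2), which end at the region from 41340354 to 41342918 that all libraries held. The cause of these missing peaks was not tested.

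Recovery was used to set each library against the rest. It is the percentage of the regions held by at least 2 of the other 4 libraries that the library also holds. In the MHC it was 77.4% in WT bulk and 68.8% in WT transfected, and 52.8% in MT1, 21.1% in MT2 and 88.9% in MT4. Beyond the MHC it was 73.5%, 64.9%, 33.3%, 12.5% and 75%. In all 5 libraries the MHC value was the higher, though the intervals of both stretches overlapped in each. Over the rest of the genome it was 81.0%, 63.5%, 43.4%, 23.1% and 83.7%.

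Segment recovery minus that of the rest of the genome averaged -2.61 ± 3.95 percentage points (SD, n = 5), with 4 libraries below and 1 above 0 (exact sign-swapping permutation test, two-sided, p = 0.25, adjusted 0.5). The values were 75.4% in WT bulk and 66.7% in WT transfected, and 42.0% in MT1, 16.3% in MT2 and 81.4% in MT4. WT transfected was the library above 0. The mean difference was -0.180 without MT4, -1.37 without WT transfected and -0.225 with the score limit at 121.64. The libraries ranked in the order of their list lengths, and with lists of equal length the mean difference was -5.78 (exact sign-swapping permutation test, p = 0.5).

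**Figure D5:**
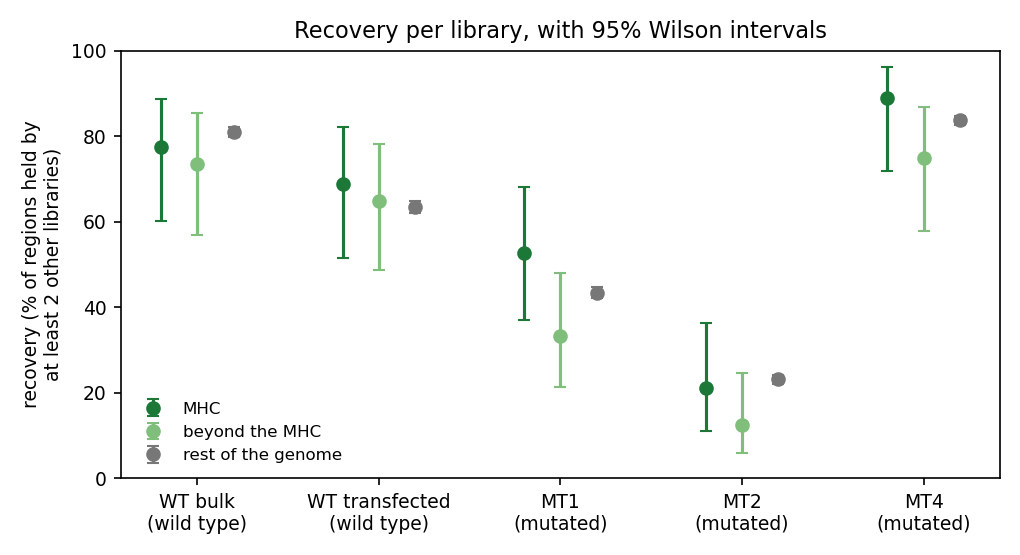
Recovery (% of the regions held by at least 2 other libraries, linear axis from 0 to 100) in the MHC, beyond it and in the rest of the genome for each library, with 95% Wilson intervals. MT2 is the lowest in all 3 and MT4 the highest, and the MHC point lies above the point beyond the MHC in each library.

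Regions held by a single list came mostly from MT4. It held 54 of its 129 regions alone (41.9%), WT bulk 16 of 86 (18.6%) and WT transfected 9 of 72 (12.5%). MT1 held 2 of 41 alone (4.88%) and MT2 0 of 14. Over the genome the shares held alone were 40.5% in MT4, 21.9% in WT bulk, 13.1% in WT transfected, 7.75% in MT1 and 4.91% in MT2. The highest-scoring region of this kind was 30094767 to 30095776 in MT4 (score 182.5, percentile 81.5). In WT bulk it was 33202180 to 33203500 (123), in WT transfected 44695285 to 44696179 (100.4) and in MT1 37625825 to 37626574 (102). None of the latter 3 passed the median percentile of its own list.

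In the segment, pairs of the same genotype did not overlap more on average than pairs of different genotype. The Jaccard index sets the bases that both lists cover against those that at least 1 of them covers. It was highest for the wild-type pair (0.393). It was 0.343 for WT bulk with MT4 and 0.336 for WT transfected with MT1. The lowest value, 0.0964, was that of MT2 with MT4, both mutated. Pairs of the same genotype averaged 0.227 (4 pairs) and pairs of different genotype 0.263 (6 pairs). Over the genome these means were 0.282 and 0.315, in the same order. Every pair with MT2, the shortest list, lay under every pair without it (0.0964 to 0.188 in the segment). Such pairs weigh more in the same-genotype mean, so these means cannot separate genotype from list length. MT4 held 13 of the 14 regions of MT2 (92.9%), which were 10.1% of its own, so that the low index of this pair went with the difference in list length.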

How the data were processed

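MeDIP-seq peak lists of 5 K562 libraries were used, 2 wild type and 3 DNMT3A mutated per the labels. The submitters' processing notes list Bowtie 1.1.1, edgeR and hg19. What each tool did, how peaks were thresholded and whether an input was sequenced is not given in the sources used here. Deposited files hold 1 list per library, with start, end, a peak name that begins with MACS and a score of at least 90. This deposited score was used to rank peaks within a list. The score limit of 121.64 was instead the median of all peaks, applied alike to every list. List medians ran from 110.67 in MT2 to 125.68 in WT bulk, so the limit kept a smaller part of some lists than of others. In MT2 the median score was 99.21 in the MHC and 102.09 beyond it, so most of its segment peaks were removed. Whether scores are on the same scale in different lists was not tested. Libraries were the replicates, and p-values measure only the spread between them.

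Peaks that shared 1 bp or more were joined as regions (Python 3.11.15, numpy 2.4.6, pandas 2.3.3, scipy 1.17.1, matplotlib 3.10.9). Merging was tested on simulated lists of widely spaced sites and on a small made-up list of adjoining peaks. Each exact test was checked on a single set of made-up values. Genotypes were compared with an exact permutation test over the 10 groupings, and stretches within libraries by exact swapping of signs (32 patterns). A two-sided p is the smaller tail doubled. Benjamini-Hochberg adjustment covered all 10 tests. Wilson intervals at 95% and upper limits from 3 counts cover counting error only, neighbouring regions are not independent, and PCR copies are not independent molecules. Coordinates are hg19, counted from 1.

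Regions named are those in all 5 libraries, wild-type-only and mutant-only regions, the best region held by a single list, the widest peaks, the densest windows and the longest stretches without a peak. Regions chosen after seeing values are marked as such. Membership of a peak was set by position alone, but the stretch, the sections of the MHC and the lists were chosen with earlier results of these data known. Alternatives were a score limit at 121.64, lists of 1426 peaks, the peak centre, restriction to chromosomes 1 to 22 and X, an overlap of 50%, joining within 500 bp and leaving out each library. Removing 26 to 29 Mb from the rest of chromosome 6 was added after seeing the data.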

Additional observations from a re-analysis of the deposited data

How the results depend on the processing

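Of 112 alternative values, 87 kept their direction (counts within 1.5 times), 14 changed sign and 11 counts moved by over 1.5 times. No test could pass 0.05 under any setting. With all 5 libraries the smallest possible p was 0.2 for the exact permutation test and 0.0625 for the exact sign-swapping permutation test. The p-values therefore cannot speak to stability, and the alternative values say little about it. The genotype difference in the share of MHC peaks became -0.0908 with the score limit, -0.0468 with lists of equal length and -0.0184 by peak centre. Without 1 library each it ran from -0.0668 (WT bulk left out) to 0.0920 (WT transfected left out). The genotype difference in median width became 273 bp with the score limit and 5 bp with equal lists, and ran from -199 to 134 bp without 1 library each. The difference in score percentile between the MHC and the segment beyond it became -1.33 with equal lists and -3.10 by peak centre, with a range of -2.04 to 3.11 without 1 library each. Wild-type-only regions numbered 3 with the score limit, 1 with equal lists, and 6 to 21 without 1 library each (14 without WT bulk, 21 without WT transfected, 17 without MT4). Mutant-only regions numbered 0 to 2 in the latter setting, where fewer libraries are required to hold or lack a region. Regions in all libraries numbered 2 with the score limit, 4 with equal lists and 7 to 26 without 1 library each, the most without MT2. The mean density differences, MHC minus beyond and segment minus rest of chromosome 6, kept their sign under every setting tried. With the score limit, the segment was not above the rest of chromosome 6 in every library (exact sign-swapping permutation test, p = 0.125). The excess of the segment over the rest of chromosome 6 ran from 0.2003 with equal lists to 0.417 without MT2, and was 0.411 once 26 to 29 Mb was left out. No paired analysis was possible because no label ties a mutated line to 1 of the wild-type cultures. Depth is unknown, with no counts per peak.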
